A study of Homo sapiens with 9 samples.

Results

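The nuclear pore genes described here are 32 genes of the pore and its partner proteins, named by symbol, and were taken up because NUP210 and AAAS fell at 60 nM okadaic acid (OA). For each gene the probe set that the platform annotation gives to that symbol alone was used, and the one with the highest mean where there were several, which concerned NUP107 only. All 32 were found among 22465 genes with such a probe set. RNA of 9 samples of cells labelled SH-SY5Y, a human neuroblastoma line, had been hybridised to arrays after 12 h. The cells were untreated (0 nM), exposed to 20 nM OA or exposed to 60 nM OA, with 3 arrays in each group, labelled as biological replicates. All carried the label of this cell line. OA, made by marine dinoflagellates, blocks protein phosphatases of the PP1 and PP2A families. The treatment field of the 60 nM arrays gives 20 nM, whereas title code, source name and design text all read 60 nM, and they were grouped as 60 nM. Whether replicates were separate cultures is not stated, and p-values here reflect only how far these samples vary, which may be technical variation.

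The nuclear pore complex is the channel through which proteins and RNA pass the nuclear envelope. Its scaffold is built of outer rings of the Y complex and of inner ring proteins, anchored by membrane proteins. The passage is filled by nucleoporins rich in phenylalanine-glycine repeats, which bind transport receptors, while filaments on the cytoplasmic side and a basket on the nuclear side help to release or gather cargo. In dividing human cells the pore is taken apart at mitosis, when kinases phosphorylate nucleoporins, and is rebuilt afterwards as phosphatases act.

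Values are log2 intensities from a table normalized across arrays, so that a shift shared by most genes would not be seen, and the number of arrays limits their precision. The background level was 5.82, the 95th percentile of 23 background probe sets. Array medians lay between 4.36 and 4.51, and arrays of one group correlated across genes at 0.995 or higher. Of 13 measured noradrenergic neuroblastoma markers, 2 (GATA2 and GATA3, chosen for naming after their values were seen) had an untreated mean above background, and TH (4.57 ± 0.01, n = 3) and DBH (4.22 ± 0.02), enzymes of noradrenaline synthesis, did not. Most of this list thus lay below background, which does not bear out the name SH-SY5Y. The identity of the cells was not tested. The keratins KRT8 (13.34 ± 0.20) and KRT18 (12.56 ± 0.20) were bright, and 5 of 10 mesenchymal, 3 of 8 epithelial, 0 of 6 leukocyte and 0 of 4 Schwann and glial markers were above background. The summed linear intensity of the mesenchymal markers was 7527 to 8374 on the 60 nM arrays and 5522 to 6097 on the untreated ones. That of the epithelial markers was 14150 to 15344 at 60 nM and 14965 to 19435 untreated. Such sums follow the brightest genes, VIM and CD44 in the first list and KRT8 and KRT18 in the second. CD44 averaged 11.51 ± 0.08 at 60 nM and 10.48 ± 0.09 untreated. YAP1 went the other way, with 9.03 ± 0.07 at 60 nM and 9.29 ± 0.05 untreated, and so did PRRX1. The part of the markers in the results was not tested, and fewer cells of a type cannot be told apart from less RNA per cell.

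The promoters of 5 members are shown from RefSeq's annotation of the human assembly GRCh38.p14, each running 300 bases from 250 before to 50 after the gene's start, 5′ to 3′. NUP210 and AAAS are the genes the choice rested on, NUP155 and NUP62 are scaffold and channel genes that fell, and TPR is the member with the highest fold change. Capitals mark matches, on either strand, to TTTCCCGC and TTTGGCGC (E2F), the NRF1 motif, CCGGAAGT (ETS) and TGACGTCA (CRE). The GC box, searched as GGGCGG, is marked in the same way. So is the promoter element named the CCAAT box, searched by the letters of its name. Overlapping matches were allowed. The positions are chr3:13420273-13420572 (minus strand) for NUP210, chr12:53321561-53321860 (minus strand) for AAAS, chr5:37371057-37371356 (minus strand) for NUP155, chr19:49929455-49929754 (minus strand) for NUP62 and chr1:186375204-186375503 (minus strand) for TPR.
NUP210: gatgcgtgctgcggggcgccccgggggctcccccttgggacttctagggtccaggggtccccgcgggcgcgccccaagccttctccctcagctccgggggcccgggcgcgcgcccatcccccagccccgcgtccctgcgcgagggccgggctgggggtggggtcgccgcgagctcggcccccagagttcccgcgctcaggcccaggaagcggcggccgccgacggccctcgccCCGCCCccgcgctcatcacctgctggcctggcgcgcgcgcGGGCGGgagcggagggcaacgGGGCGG
AAAS: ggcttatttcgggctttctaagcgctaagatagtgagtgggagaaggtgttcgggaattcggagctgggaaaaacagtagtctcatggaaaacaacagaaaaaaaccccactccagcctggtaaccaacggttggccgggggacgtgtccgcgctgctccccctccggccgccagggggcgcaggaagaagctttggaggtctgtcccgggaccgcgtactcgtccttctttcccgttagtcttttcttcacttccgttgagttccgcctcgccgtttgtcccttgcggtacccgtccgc
NUP155: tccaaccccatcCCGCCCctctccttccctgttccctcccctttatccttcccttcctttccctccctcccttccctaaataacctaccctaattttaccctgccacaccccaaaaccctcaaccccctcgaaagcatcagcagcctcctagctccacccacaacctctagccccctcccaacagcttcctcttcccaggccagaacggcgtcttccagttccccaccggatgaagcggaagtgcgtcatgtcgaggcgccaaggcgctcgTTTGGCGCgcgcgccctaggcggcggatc
NUP62: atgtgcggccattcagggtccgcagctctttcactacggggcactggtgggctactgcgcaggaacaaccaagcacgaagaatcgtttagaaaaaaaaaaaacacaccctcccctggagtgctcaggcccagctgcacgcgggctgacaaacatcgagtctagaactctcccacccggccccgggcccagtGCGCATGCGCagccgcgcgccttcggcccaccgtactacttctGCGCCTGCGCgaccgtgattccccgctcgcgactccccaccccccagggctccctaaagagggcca
TPR: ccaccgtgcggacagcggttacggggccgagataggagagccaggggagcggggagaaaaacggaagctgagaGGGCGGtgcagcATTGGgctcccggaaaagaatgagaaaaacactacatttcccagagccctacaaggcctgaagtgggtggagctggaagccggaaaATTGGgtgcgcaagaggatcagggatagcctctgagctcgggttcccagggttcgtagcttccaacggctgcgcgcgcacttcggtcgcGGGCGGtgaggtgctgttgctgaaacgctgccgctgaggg

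The promoter of NUP210 held 3 GC boxes and had a GC content of 81.3%, the highest among the members. That of NUP155 held TTTGGCGC and 1 GC box, NUP62 held 2 NRF1 matches, TPR held 2 CCAAT boxes and 2 GC boxes, and AAAS (GC content 57.7%) held none of these letters. Promoters were listed for 29 of the 32 members, with a median GC content of 63.0% and a median of 27 CG dinucleotides, against 58.3% and 14 over 27305 genes. For the motif shares, all genes means these 27305 genes with a listed promoter, not the 22465 genes of the arrays. They were not limited by gene type or level, so they are not matched to the members. Where a gene had several promoters, GC content and CG counts were averaged, and a motif counted if any of them held it. TTTCCCGC was found in 0 of 29 members and in 1.98% of all genes, and TTTGGCGC in 1 of 29 and in 0.795% of all genes. ETS letters stood in 6 of 29 (20.7%) and in 4.95% of all genes, and CRE letters in 4 of 29 (13.8%) and in 2.25%. NRF1 letters stood in 4 of 29 (13.8%) and in 6.98% of all genes, CCAAT boxes in 12 of 29 (41.4%) and in 39.7%, and GC boxes in 14 of 29 (48.3%) and in 48.3%. The 6 members with ETS letters (NUP160, NUP35, NUP54, NUP58, POM121 and SEC13) included 1 gene that fell at 60 nM, NUP160. Of the 4 with NRF1 letters NUP62 and NUP214 fell, and of the 4 with CRE letters NUP133 and NUP214 fell. Among array genes 13.2% were called lower there, or 26.1% of those above background, and nothing is read from such small counts. A match is a description of the letters alone.

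At 60 nM OA the 2 genes that led to the choice were lower, and their values are given as a description without a test. NUP210, a membrane glycoprotein of the pore, had 9.26, 9.01 and 9.19 at 60 nM, against 11.06, 11.24 and 11.59 untreated. The 60 nM arrays all lay far below the untreated ones, with a log2 fold change of -2.14 (SE 0.13), or 0.226 times the untreated intensity. At 20 nM, NUP210 had 10.98, 10.95 and 10.88, also below every untreated array, with a log2 fold change of -0.36 (SE 0.13). AAAS, which encodes the WD-repeat protein ALADIN that is mutated in triple A syndrome, had 10.81, 10.56 and 10.67 at 60 nM, against 11.06, 11.22 and 11.33 untreated. Its groups did not overlap, and the log2 fold change was -0.52 (SE 0.09). At 20 nM, AAAS had 11.28, 11.22 and 11.11, within the spread of the untreated arrays. With the chromosome score defined further on as a covariate, the 60 nM folds were -1.82 for NUP210 and -0.34 for AAAS.

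**Figure D1:**
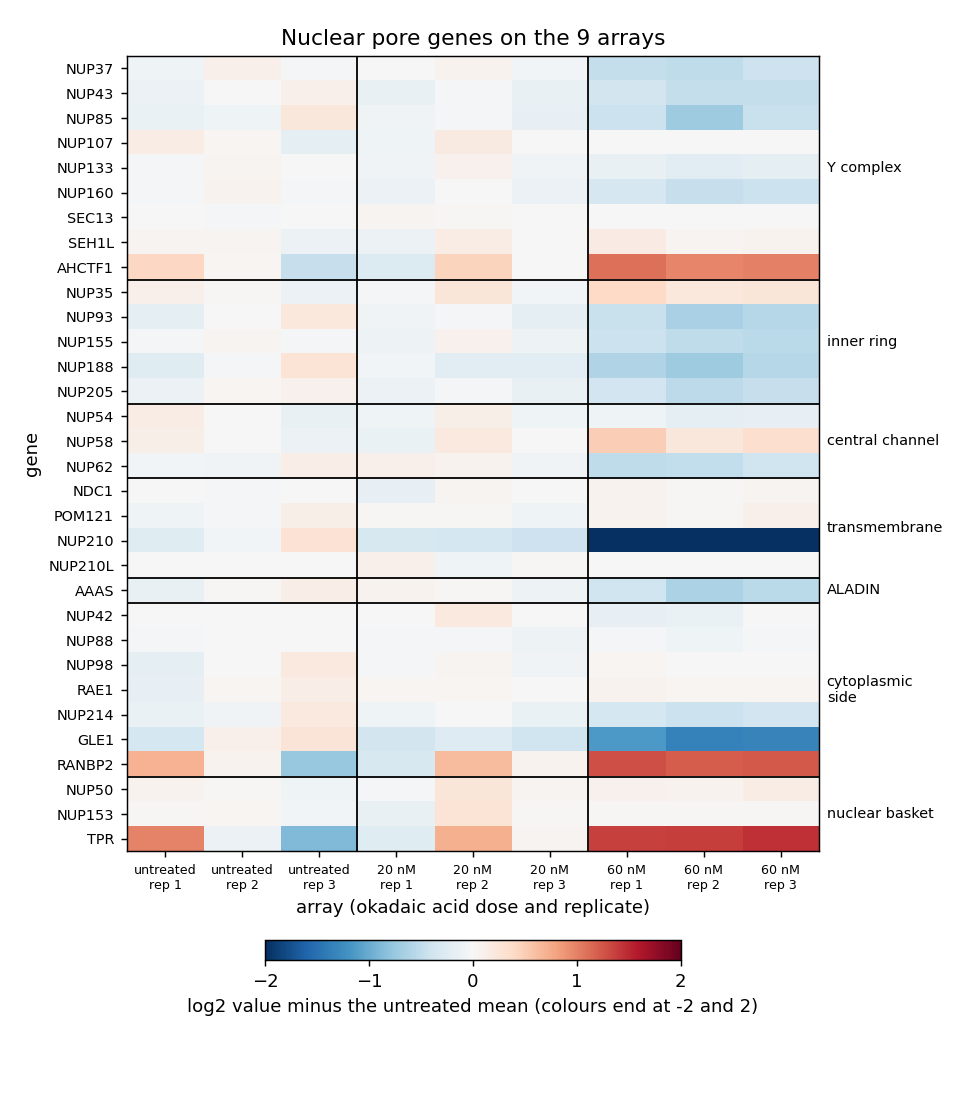
Each row is a nuclear pore gene and each column an array, in order of dose; colour gives the log2 value minus the gene's untreated mean, and lines separate the groups of pore proteins and the doses. The 60 nM arrays are blue for NUP210 and for most of the Y complex and inner ring, and red for AHCTF1, RANBP2 and TPR, whose untreated arrays also differ in colour among themselves.

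Apart from these 2 genes, 12 of the other 30 members fell and 1 rose at 60 nM against untreated cells (limma, Benjamini-Hochberg adjusted p under 0.05 over all 22465 genes). Over all genes tested 13.2% were called lower and 7.94% higher (21.2% in either direction), and among 10062 genes above background 26.1% and 14.9% (41% in either direction). A gene counted as above background if the mean of any group passed the background level, so genes bright in 1 group alone are included. This filter was made with the same groups and leaves fewer genes to adjust for. Calls among genes above background alone are therefore a description, not added support. Because the same comparison led to the choice of the genes, nothing is read from the members' share of 40.0% lower. The median log2 fold change of the 30 was -0.02, against 0.00 over all genes and -0.04 over genes above background. After a shift of each array by its hybridisation controls only GLE1 and NUP188 of the 12 were still called lower. The folds of all 12 moved by under 0.01 on the log2 scale, with -0.46 for NUP37 and -0.49 for NUP155, for example, but the SE of each was then 0.204. All members but NUP210L had means above background in every group. Of the 30, 12 had all 60 nM arrays below the untreated ones and 6 had all above, where 19.2% and 14.2% of all genes did. None of the called members had repeated values, whereas 10 of the 17 that were not called had 3 or more arrays at 1 value to 4 decimals, such as SEC13 at 7.92 and NUP42 at 8.91. Of all 22465 genes 12364 had such repeats, and nothing is read from the members' count. Without these genes 4556 of 10101 were called in either direction, so the shares over all genes are lowered by them.

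**Figure D2:**
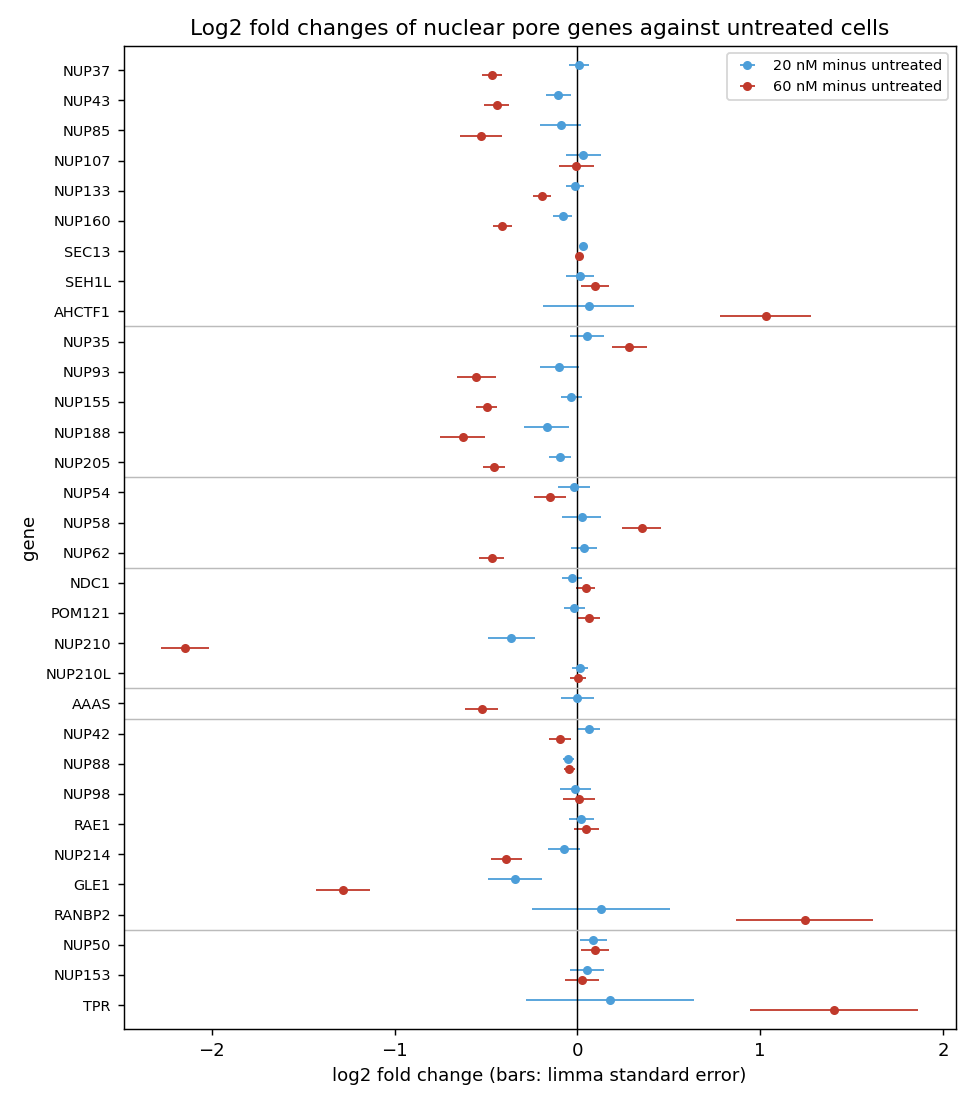
Points give the log2 fold change of each nuclear pore gene at 20 nM and at 60 nM minus untreated, with bars for the limma standard error; grey lines separate the groups of pore proteins. At 60 nM the points reach from -2.14 for NUP210 to 1.40 for TPR, whose bar is the widest, while the 20 nM points of all genes but NUP210 and GLE1 lie between -0.17 and 0.18.

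Of the 9 Y complex genes, which form the outer rings of the scaffold, 5 fell at 60 nM. Over all genes 13.2% were called lower, and among genes above background 26.1%. Nothing is read from the counts of this or the following groups of pore proteins, which are small and come from the comparison that led to the choice. NUP37, a WD-repeat member, had 8.56, 8.53 and 8.63 at 60 nM, against 8.96, 9.14 and 9.02 untreated, a log2 fold change of -0.47 (SE 0.06, adjusted p = 0.001). NUP160, a large subunit of the arms of the Y, had 10.32, 10.21 and 10.23 at 60 nM, against 10.64, 10.73 and 10.62 untreated, with a change of -0.41 (SE 0.05, adjusted p = 0.0013). NUP43, another WD-repeat member, had 12.49, 12.38 and 12.37 at 60 nM, against 12.73, 12.86 and 12.96 untreated, with a change of -0.44 (SE 0.07, adjusted p = 0.00298). In each of the 3 genes the groups did not overlap and the 60 nM arrays were the lowest of all 9. NUP85, an arm subunit that binds SEH1L, had 9.70, 9.42 and 9.69 at 60 nM, against 10.00, 10.05 and 10.35 untreated, with a change of -0.53 (SE 0.11, adjusted p = 0.014). The NUP85 arrays did not overlap either, and untreated replicate 3 was the highest. The NUP85 call was lost when the 2 groups were fitted alone (adjusted p = 0.063). NUP133, at the tip of the stalk of the Y, had 9.72, 9.64 and 9.67 at 60 nM, against 9.83, 9.92 and 9.86 untreated. The groups lay close without overlapping. Its fall of 0.20 on the log2 scale (SE 0.05, limma adjusted p = 0.0277) was the smallest that was called. Leaving out untreated replicate 2 (adjusted p = 0.097) or 3 (0.0642), or 60 nM replicate 2 (0.0945) or 3 (0.0832), ended the call. Equal array medians ended it too (0.076).

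The stalk subunit NUP107, which joins NUP133 to the rest of the Y, was within the untreated spread, with 10.85, 10.85 and 10.85 at 60 nM, against 11.01, 10.90 and 10.67 untreated, and its dimmer second probe set averaged 7.48 ± 0.02 at 60 nM and 7.36 ± 0.22 untreated. SEC13, which also serves in COPII vesicle coats, and SEH1L, which it resembles and which also serves in the GATOR2 complex, had log2 fold changes of 0.01 and 0.10 and did not pass the test (limma adjusted p = 0.828 and 0.5). AHCTF1 encodes ELYS, which brings the Y complex to chromatin when pores form after mitosis, and it was the member that rose. It had 8.77, 8.65 and 8.69 at 60 nM, against 8.10, 7.72 and 7.21 untreated, a log2 fold change of 1.03 (SE 0.25, adjusted p = 0.024). All 60 nM arrays lay above the untreated ones, but the untreated arrays spread over 0.89 and the 60 nM arrays over 0.12. Leaving out untreated replicate 2 (adjusted p = 0.0671) or 3 (0.0517) ended the call, as did leaving out 60 nM replicate 1 (0.077), 2 (0.0663) or 3 (0.07) and fitting the 2 groups alone (0.0516).

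Of the 5 inner ring genes 4 fell at 60 nM, where 13.2% of all genes and 26.1% of those above background did. Nothing is read from so small a count. NUP155, which contacts the membrane and links parts of the ring, had 13.94, 13.86 and 13.84 at 60 nM, against 14.35, 14.42 and 14.35 untreated, a log2 fold change of -0.50 (SE 0.06, adjusted p = 0.000909). NUP205 and its relative NUP188 are large solenoid proteins that bind NUP93. NUP205 had 10.39, 10.25 and 10.32 at 60 nM, against 10.67, 10.81 and 10.86 untreated, with a change of -0.46 (SE 0.06, adjusted p = 0.0016). NUP188 had 10.64, 10.52 and 10.68 at 60 nM, against 11.01, 11.20 and 11.52 untreated, with a change of -0.63 (SE 0.12, adjusted p = 0.0101). NUP93, the hub that also holds the channel nucleoporins, had 10.92, 10.71 and 10.79 at 60 nM, against 11.16, 11.34 and 11.57 untreated, with a change of -0.55 (SE 0.11, adjusted p = 0.00954). None of the 4 overlapped between groups, where 19.2% of all genes lay below without overlap. Untreated replicate 3 was the highest array in NUP93, NUP188 and NUP205. NUP35, the smallest ring protein and a binder of membranes, ran the other way, with 6.92, 6.74 and 6.77 at 60 nM, against 6.62, 6.54 and 6.40 untreated. Its change of 0.28 (SE 0.09) missed the threshold (limma adjusted p = 0.0802), although the arrays did not overlap. NUP35 was called with quantile normalization (0.0213) and among genes above background alone (0.0405), a filter made with the same groups.

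The 3 partners of the central channel, which carry phenylalanine-glycine repeats and form one complex on NUP93, included 1 gene that fell and 0 that rose. Over all genes 13.2% were called lower and 7.94% higher. NUP62 had 11.46, 11.48 and 11.58 at 60 nM, against 11.92, 11.91 and 12.11 untreated, and fell by 0.47 on the log2 scale (SE 0.07, limma adjusted p = 0.00301). NUP54 had a change of -0.15 (SE 0.09, limma adjusted p = 0.322), and its groups overlapped. NUP58 had 9.93, 9.67 and 9.77 at 60 nM, against 9.56, 9.44 and 9.32 untreated, all higher at 60 nM, with a change of 0.35 (SE 0.11) that missed the threshold at limma adjusted p = 0.0565. NUP58 was called with quantile normalization (adjusted p = 0.00741) and among genes above background alone (0.0267), a filter made with the same groups. NUP62CL, which resembles NUP62, averaged 8.80 ± 0.11 at 60 nM and 8.47 ± 0.13 untreated, a change of 0.33 (SE 0.09, limma adjusted p = 0.046).

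None of the 3 other membrane protein genes of the pore was called at 60 nM. NDC1, which anchors the scaffold, and POM121, which takes part in pore assembly in interphase, had log2 fold changes of 0.05 (SE 0.05) and 0.06 (SE 0.06), neither called (limma adjusted p = 0.685 and 0.577). POM121 has a near-identical copy, POM121C, so that the signal of each is uncertain, and POM121C averaged 12.90 ± 0.04 at 60 nM and 12.83 ± 0.13 untreated. NUP210L, a relative of NUP210 known from the testis, was at background in all groups, with values from 3.70 to 3.89 over the 9 arrays. Its 3 untreated arrays held 1 value.

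On the cytoplasmic side and among the mRNA export factors of the pore, 2 of 7 genes fell at 60 nM. The share was 13.2% over all genes and 26.1% among those above background. GLE1, which activates the helicase DDX19 to release mRNA from its export receptor, had 8.35, 8.14 and 8.16 at 60 nM, against 9.15, 9.60 and 9.75 untreated, with a log2 fold change of -1.28 (SE 0.15, adjusted p = 0.000882). After NUP210 it had the largest fall of the members, and its call was kept in all 21 alternatives of the comparison, with folds from -1.46 to -1.01. At 20 nM, GLE1 had 9.14, 9.24 and 9.11, a change of -0.34 (SE 0.15) that was not called (limma adjusted p = 1) and overlapped untreated replicate 1. NUP214, a repeat nucleoporin that is fused in some leukaemias, had 12.18, 12.10 and 12.14 at 60 nM, against 12.39, 12.46 and 12.73 untreated, with a change of -0.39 (SE 0.09, adjusted p = 0.0166), lost without 60 nM replicate 2 (adjusted p = 0.0608) or 3 (0.0537) and in the fit of the 2 groups alone (0.0619). Its partner NUP88, NUP98, the export factor RAE1 that binds NUP98, and NUP42, which binds GLE1, were not called, with changes from -0.09 for NUP42 to 0.05 for RAE1.

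**Figure D3:**
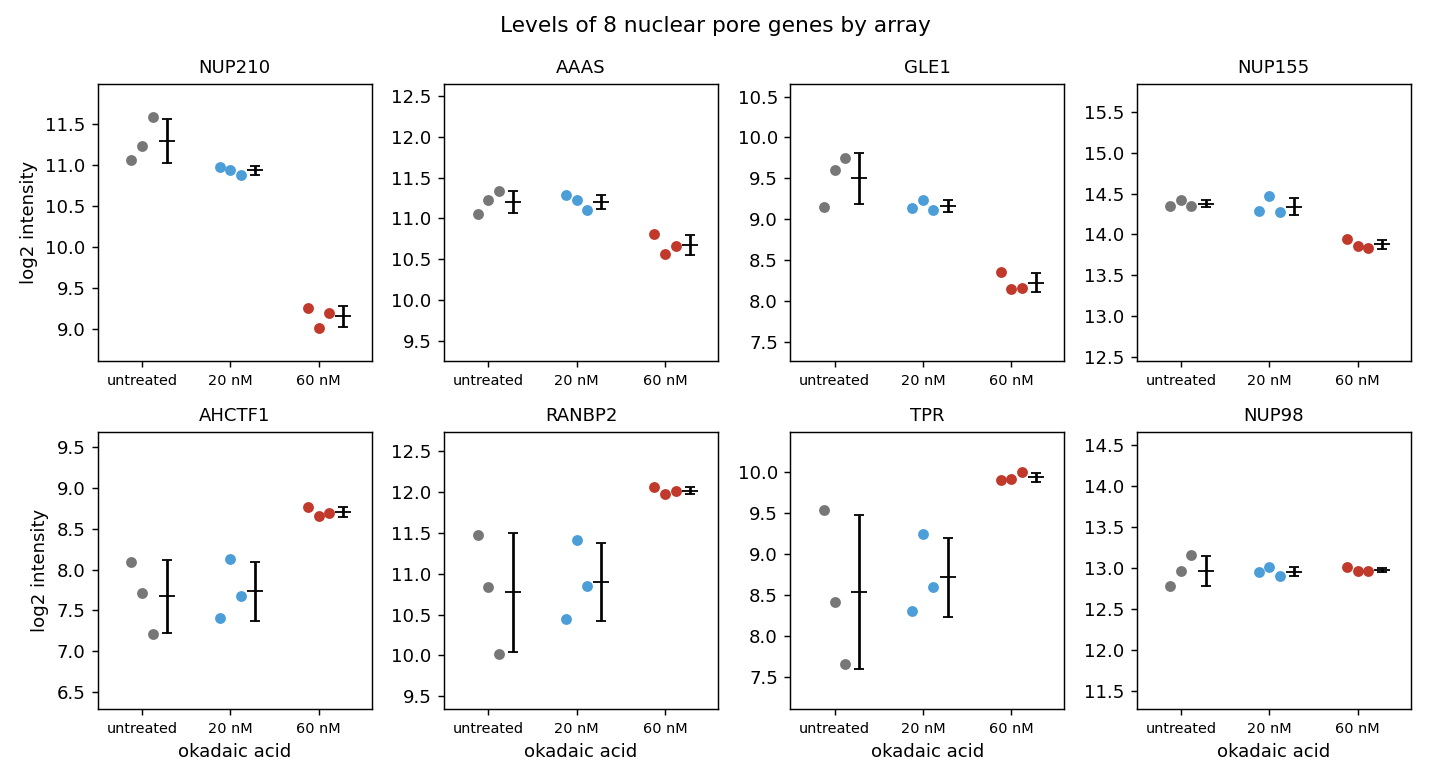
Log2 intensity of 8 nuclear pore genes by dose, with a point for each array and a black bar for the mean and SD of 3 arrays; every panel spans the same height on the log2 scale. The 60 nM arrays lie below the others in NUP210, AAAS, GLE1 and NUP155 and above them in AHCTF1, RANBP2 and TPR, where the untreated arrays spread most, while NUP98 overlaps.

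RANBP2, the largest filament protein and a SUMO ligase that binds Ran, had 12.06, 11.98 and 12.01 at 60 nM, against 11.47, 10.84 and 10.01 untreated. All 60 nM arrays were above the untreated ones, and the change of 1.24 (SE 0.38) was not called (limma adjusted p = 0.0578). It was called without untreated replicate 1 (adjusted p = 0.0179), with quantile normalization (0.033) and among genes above background alone (0.0241), a filter made with the same groups. The RGPD genes are partial copies of RANBP2, so that probes may not tell them apart. RGPD3 averaged 10.59 ± 0.03 at 60 nM and 9.58 ± 0.53 untreated (SD, n = 3) and RGPD4 10.92 ± 0.05 at 60 nM and 9.91 ± 0.51 untreated, with changes of 1.02 (SE 0.28) and 1.01 (SE 0.28) that were called (limma adjusted p = 0.0396 and 0.0447).

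None of the 3 nuclear basket genes was called at 60 nM. TPR, the coiled-coil protein that forms the basket filaments, had 9.90, 9.92 and 10.00 at 60 nM, against 9.54, 8.42 and 7.66 untreated. The 60 nM arrays lay above the untreated ones, whose range of 1.88 was the widest among the members. Its change of 1.40 (SE 0.46) did not pass the test (limma adjusted p = 0.0744), and without untreated replicate 1 it did (0.00803, log2 fold change 1.90). NUP153, which links the basket to the ring and the lamina, and the mobile nucleoporin NUP50, a cofactor of importin alpha, had changes of 0.03 (SE 0.09) and 0.09 (SE 0.08).

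AHCTF1, RANBP2 and TPR also differed between arrays of one group. Untreated replicate 1 was the highest and replicate 3 the lowest untreated array in all 3 genes, and at 20 nM replicate 2 was the highest and replicate 1 the lowest. Deviations from the group means, over the 9 arrays of 3 groups, correlated at 0.976 between RANBP2 and TPR and at 0.993 between RANBP2 and AHCTF1, while RANBP2 and NUP188 correlated at -0.889. These values describe arrays that share labelling and scaling, and no test is given. A chromosome score was taken for each array from genes above background. It is their median deviation on the gene-dense chromosomes 16, 17, 19 and 22 minus that on the gene-poor chromosomes 4, 13 and X. For the score, deviations were taken from each gene's mean over all 9 arrays, not from the group means. The score was -0.03, -0.10 and -0.04 on the 60 nM arrays, against -0.02, 0.01 and 0.12 on the untreated arrays. On the 20 nM arrays it was 0.03, -0.01 and 0.01, so that the 60 nM arrays had the lowest scores. The score is made from the same values as the folds. A change with dose therefore cannot be told apart from a change with the score, and folds fitted with the score may lack part of the change with dose.

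Within groups the deviations correlated with the score at -0.822 for RANBP2, -0.807 for TPR and -0.771 for AHCTF1, and at 0.962 for NUP210, 0.959 for NUP188 and 0.726 for GLE1. Over genes above background the median was 0.207 and the outer deciles began at -0.736 and 0.841. Of the 14 members lower at 60 nM, NUP210 and AAAS among them, 11 had a correlation above 0, and NUP133, NUP155 and NUP160 did not. As the median over genes above background was above 0 too, nothing is read from this count. With the score as a covariate 8 of the 30 members fell and 0 rose at 60 nM against untreated cells, where 7.84% of all genes were called lower and 5.69% higher (13.5% in either direction). The folds were then 0.54 for AHCTF1 (limma adjusted p = 0.248), 0.44 for RANBP2 (0.544) and 0.45 for TPR (0.666), in place of 1.03, 1.24 and 1.40. The calls of NUP85 (adjusted p = 0.0816), NUP93 (0.065), NUP133 (0.151) and NUP214 (0.165) were lost as well. With the score the log2 fold changes were -0.27 for NUP85, -0.32 for NUP93 and -0.22 for NUP214, in place of -0.53, -0.55 and -0.39, while NUP133 had -0.20 in both fits. NUP188 was still called (adjusted p = 0.0129), with a change of -0.32 in place of -0.63. The folds of the other 7 members that fell, between -1.01 for GLE1 and -0.34 for NUP43, moved by less than 1.5 times.

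**Figure D4:**
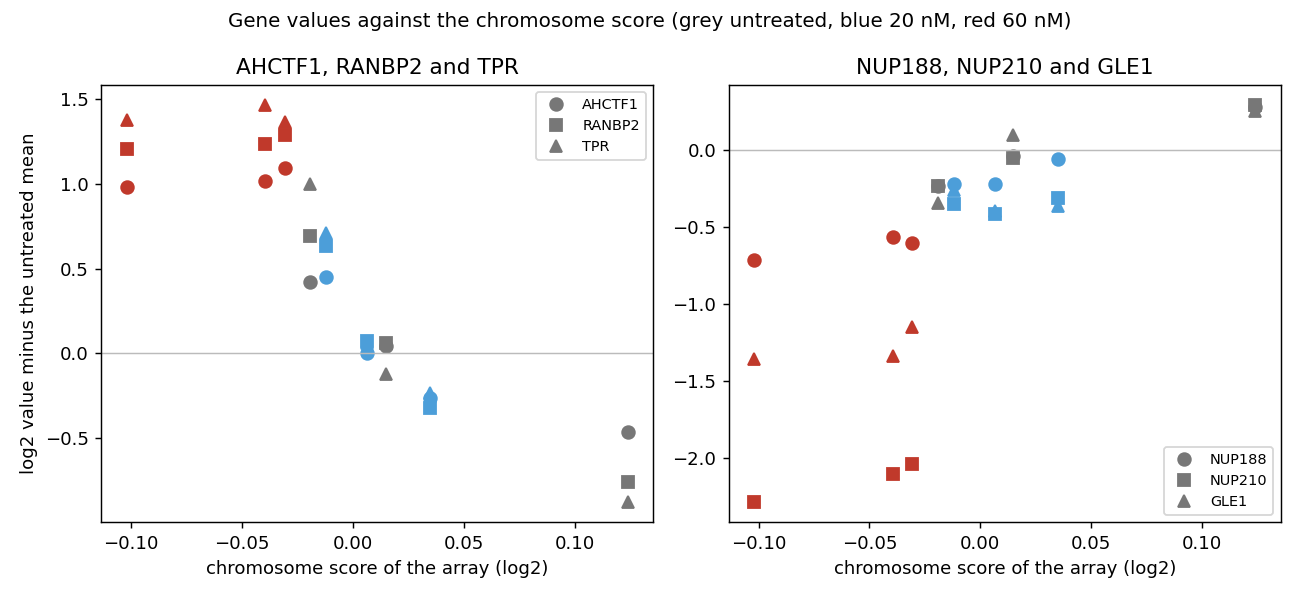
Each point is an array (grey untreated, blue 20 nM, red 60 nM), placed by its chromosome score and by a gene's log2 value minus the untreated mean, with a symbol for each gene. AHCTF1, RANBP2 and TPR run down from left to right across the untreated and 20 nM arrays, and the 60 nM arrays have the lowest scores. NUP188, NUP210 and GLE1 run up across the untreated arrays, while NUP210 and GLE1 do not rise steadily at 20 nM. The 60 nM arrays of NUP210 and GLE1 lie well below the rest.

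At 20 nM OA none of the 30 members was called against untreated cells (limma, lowest adjusted p = 1), none had an unadjusted p under 0.05, and their log2 fold changes lay between -0.34 for GLE1 and 0.18 for TPR. Over all genes 5 of 22465 were called there (0.0223%), and 1119 had an unadjusted p under 0.05. For all 30 members the 20 nM arrays overlapped the untreated ones, where 2.57% of all genes lay above and 3.44% below without overlap.

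The 60 nM arrays were also set against the 20 nM arrays, and this comparison shares the 60 nM arrays with the one above. Of the 30 members 12 fell and 1 rose (limma adjusted p under 0.05), where 10.9% of all genes were called lower and 6.94% higher (17.8% in either direction), and among genes above background 22.2% and 12.9% (35.1% in either direction). The choice of genes rested on the same 60 nM arrays, so nothing is read from the members' share. All 13 members called against untreated cells were also called here in the same direction. How many of all genes did so was not counted. As 5 of 22465 genes were called between 20 nM and untreated cells, the 2 comparisons are not independent evidence. GLE1 had 8.35, 8.14 and 8.16 at 60 nM, against 9.14, 9.24 and 9.11 at 20 nM, with a log2 fold change of -0.94 (SE 0.15, adjusted p = 0.00464). NUP62 had 11.46, 11.48 and 11.58 at 60 nM, against 12.08, 12.05 and 11.91 at 20 nM, with a change of -0.51 (SE 0.07, adjusted p = 0.00284). The groups of both genes did not overlap, as held for 12 members below and 4 above, where 18.7% and 12.5% of all genes did so. NUP37 had 8.56, 8.53 and 8.63 at 60 nM, against 9.06, 9.11 and 8.98 at 20 nM, with a change of -0.47 (SE 0.06, adjusted p = 0.00129). NUP155 had 13.94, 13.86 and 13.84 at 60 nM, against 14.28, 14.47 and 14.28 at 20 nM, with a change of -0.46 (SE 0.06, adjusted p = 0.00169). In both genes the 20 nM arrays lay above all 60 nM arrays. NUP160 had 10.54, 10.67 and 10.54 at 20 nM, and its change at 60 nM was -0.33 (SE 0.05, adjusted p = 0.00456). NUP205 had 10.67, 10.74 and 10.64 at 20 nM, with a change of -0.36 (SE 0.06, adjusted p = 0.00605). NUP43 had 12.71, 12.84 and 12.71 at 20 nM, with a change of -0.34 (SE 0.07, adjusted p = 0.0121). The 60 nM arrays of these 3 genes were again the lower ones, without overlap. As a description, NUP210 had a change of -1.78 (SE 0.13) and AAAS of -0.52 (SE 0.09).

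The 20 nM arrays of the remaining called members overlapped the untreated ones. NUP85 had 10.06, 10.10 and 9.96 at 20 nM, and NUP93 had 11.29, 11.32 and 11.16. NUP188 had 11.18, 11.02 and 11.02, and NUP214 had 12.43, 12.54 and 12.39. In these 4 genes every 20 nM array lay above the 60 nM arrays given before, with changes of -0.44, -0.45, -0.46 and -0.32 at 60 nM. NUP133 had 9.80, 9.96 and 9.80 at 20 nM, and AHCTF1 had 7.41, 8.13 and 7.68, below every 60 nM array. The calls of AHCTF1, NUP85, NUP93, NUP133, NUP188 and NUP214 against 20 nM were ended by 8, 9, 7, 16, 8 and 11 of the 21 alternatives, in that order, and that of NUP43 by 1. The count of 12 lower members was 7 without untreated replicate 2, without 20 nM replicate 1 and without 60 nM replicate 2 or 3. It was also 7 with the chromosome score.

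Of 77 measured genes of transport and the nuclear envelope, 8 rose and 20 fell at 60 nM against untreated cells. These 36.4% lie between the 21.2% called over all genes and the 41% called over genes above background, and nothing is read from the lists' counts. Of 18 measured importins, which carry cargo into the nucleus, 3 rose and 4 fell, with a median log2 fold change of -0.01. IPO9, a carrier of histones and ribosomal proteins, averaged 9.68 ± 0.10 at 60 nM and 11.17 ± 0.10 untreated (SD, n = 3), a change of -1.50 (SE 0.07, adjusted p = 1.63e-05). KPNB1, or importin beta, averaged 13.62 ± 0.03 at 60 nM and 13.83 ± 0.05 untreated, with a change of -0.21 (SE 0.04, adjusted p = 0.00701). Of the importin alpha genes KPNA2 and KPNA4 rose and KPNA6 fell (-0.51, SE 0.09, adjusted p = 0.00719). KPNA2 averaged 17.65 ± 0.07 at 60 nM and 17.12 ± 0.05 untreated, with a change of 0.54 (SE 0.04, adjusted p = 0.000188), and KPNA4 had a change of 0.60 (SE 0.10, adjusted p = 0.00403). Of 8 exportins 2 fell and 0 rose (median -0.06), XPO6, which exports actin, by 0.49 (SE 0.10, adjusted p = 0.0128) and XPO7 by 0.47 (SE 0.07, adjusted p = 0.00279) on the log2 scale. Of 5 measured genes of the Ran cycle, which gives transport its direction, only RANGRF was called, with a change of -0.72 (SE 0.11, adjusted p = 0.00273).

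Of 21 measured mRNA export genes 8 fell and 2 rose, with a median of -0.12. THOC6, a subunit of the THO complex, averaged 10.71 ± 0.09 at 60 nM and 12.05 ± 0.24 untreated, with a change of -1.33 (SE 0.13, adjusted p = 0.000457). CHTOP, a partner of the same export machinery, averaged 10.28 ± 0.04 at 60 nM and 11.48 ± 0.10 untreated, with a change of -1.20 (SE 0.05, adjusted p = 1.58e-05). DDX19B, one of the DDX19 helicases that GLE1 activates, had a change of -0.55 (SE 0.10, adjusted p = 0.00691), and PCID2, of the TREX-2 complex, one of -0.45 (SE 0.08, adjusted p = 0.00593). Of 17 genes of the nuclear lamina and envelope 4 fell and 2 rose (median -0.03). LMNB1, or lamin B1, averaged 8.23 ± 0.06 at 60 nM and 9.31 ± 0.09 untreated, with a change of -1.08 (SE 0.06, adjusted p = 4.29e-05), and the inner membrane gene LEMD3 had a change of -0.47 (SE 0.07, adjusted p = 0.00244). LMNA, or lamin A/C, rose by 0.14 (SE 0.03, adjusted p = 0.0134) near background, and TOR1AIP1, a cofactor of torsin, by 0.42 (SE 0.10, adjusted p = 0.0198). Of 8 measured pore associated genes outside the members NUP62CL rose and ZC3HC1, a basket protein, fell (median 0.04). At 20 nM none of these genes was called by limma, while 4 of the 77 had an unadjusted p under 0.05.

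**Figure D5:**
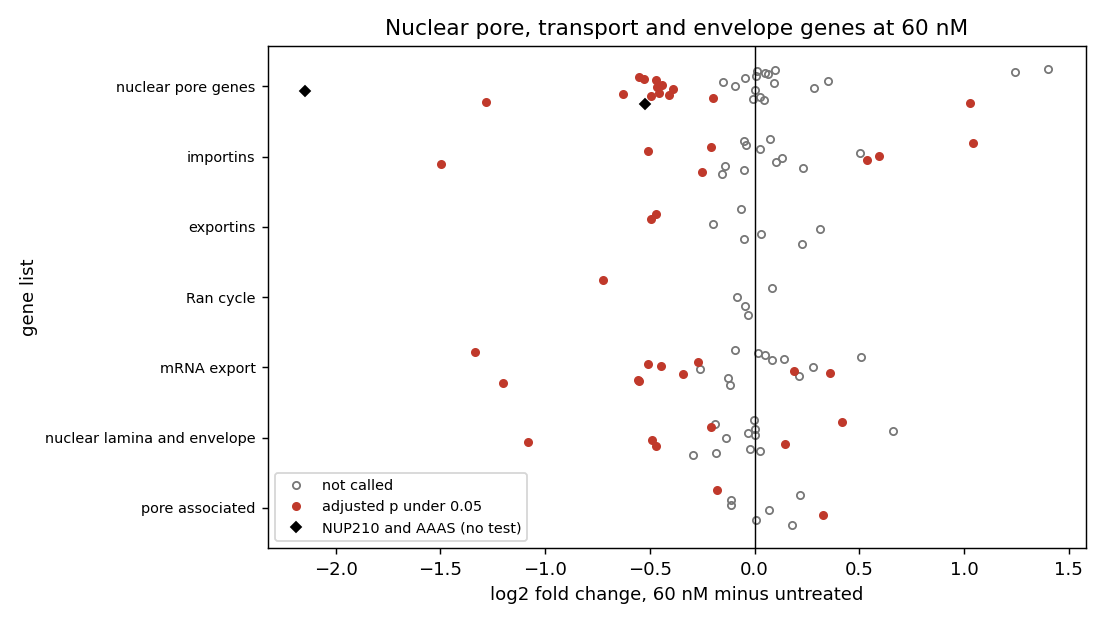
Each point is a gene, placed by its log2 fold change at 60 nM minus untreated and by its list; filled red points passed adjusted p under 0.05, open ones did not, and black diamonds mark NUP210 and AAAS, given without a test. Every list except the exportins and the Ran cycle holds called genes on both sides of 0, and 12 of the nuclear pore genes lie called on the left.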

How the data were processed

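RNA of 9 samples was measured on arrays. The authors deposited 1 table of 70523 probe sets by 9 arrays, and RMA is named in the submitters' processing notes, with its version and the annotation and build not given in the sources used here. Intensities in the deposited table are linear (median 21.8), not the log2 values RMA usually gives and the design also allowed for. Log2 was taken with no added constant. Whether a further transformation was applied is unknown.

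Probe sets with 1 symbol in the platform annotation (23781) were kept, and the highest-mean set per gene gave 22465 genes. Sets with no symbol or with several (1543) were dropped, which left IPO11, RCC1, NUTF2, DDX39B, ZC3H11A, NXF1 and SENP2 of the lists unmeasured. Of the genes 20295, all 32 members among them, were found by gene number in RefSeq's table of GRCh38.p14, used for names and chromosomes. Values are per probe set, so levels of different genes were not ranked. Values repeat between arrays in many genes, which can make their SE too small.

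All 9 arrays were fitted with limma 3.58.1 in R 4.3.3 (lmFit, eBayes without trend, a term per group), with two-sided tests and Benjamini-Hochberg adjustment over all genes. The function was tested on simulated data. The members and gene lists were chosen with earlier results of these data known, so no list test is given. Each member called in any comparison and NUP210 and AAAS are named with all their arrays, and up to 4 called genes of each transport or envelope list by smallest p (KPNA6 was named after its value was seen). RANBP2, TPR, NUP35, NUP58 and NUP107 are given by array too and were chosen so after their values were seen. Protein sequences were not used here. Figures were drawn with matplotlib 3.10.9. Replicate numbers were not used to pair the arrays, and deviations of same-numbered arrays correlated at -0.519 to 0.0774. Other differences between arrays enter these correlations, so they cannot show whether same-numbered arrays shared a culture.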

Additional observations from a re-analysis of the deposited data

How the results depend on the processing

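The falls of NUP37, NUP43, NUP62, NUP155, NUP160 and NUP205 at 60 nM against untreated cells were kept in 20 of 21 alternatives each, and those of GLE1 and NUP188 in all 21, where the log2 fold change of NUP188 ranged from -0.74 to -0.32, the smallest fall being with the chromosome score. No called member changed direction in any alternative run. The 1 member higher against untreated cells became 5 with quantile normalization, with genes above background alone and without genes with repeated values, 3 after a shift by the hybridisation controls, and 0 in the fit of the 2 groups, with the replicate block and with the chromosome score (0 to 3 leaving out 1 array). The 12 lower became 2 after the hybridisation control shift (10 to 12 leaving out 1 array), under which limma gave every gene an SE of 0.204. The genes called in all, 4752, were 2248 after that shift and 3039 with the score (3664 to 4774 leaving out 1 array).

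Between 60 nM and 20 nM the 1 higher member became 2 with quantile normalization, 3 after the control shift, with genes above background alone and in the fit of the 2 groups, 4 without repeated values, 5 without untreated replicate 3 and 20 nM replicate 2 together, and 0 with the replicate block and with the score (0 to 3 leaving out 1 array). The 12 lower became 7 with the replicate block and 7 with the score (7 to 11 leaving out 1 array), and the 4006 genes called in all ranged from 2824 to 4484 leaving out 1 array. Between 20 nM and untreated cells the 5 genes called in all were 0 with equal medians and with the replicate block, 16 after the control shift, 8 above background, 2 in the fit of the 2 groups, 15 with the score and 27 without those 2 arrays (0 to 19 leaving out 1 array), and no member was called in any of these. The replicate block is given although what same-numbered arrays share is not stated, and 1 of 9 arrays correlated best with its own number. A pseudocount of 16, the mean of all probe sets and eBayes with trend moved no such count by over 1.5 times. Where the cause of a change is not named, the cause was not tested.

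With 3 arrays per group, exact tests of single values could not go below p = 0.1 and were not used.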
